A study of Homo sapiens with 32 samples.

Results

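The 34 genes described here carry out homologous recombination and the Fanconi anaemia repair of DNA interstrand crosslinks. They were taken from a fixed list of gene symbols, and every deposited m6A peak overlapping the RefSeq GRCh38 body of one of them by at least 1 base, on either strand, was counted. The RefSeq table holds 59098 genes on chromosomes 1 to 22 and X, and 19156 of these had a peak in at least 1 list. Of the 34 members, 23 had a peak in all 12 lists, 10 had a peak in some lists, and UBE2T had none.

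The study profiled N6-methyladenosine (m6A), a methyl mark on adenosine in RNA, in the RNA that stays bound to chromatin in human cancer cell lines, by antibody capture of methylated fragments (MeRIP-seq). METTL3, the catalytic subunit of the main m6A methyltransferase, was knocked down with a short hairpin (labelled shMETTL3) and set against control cells. OVCAR8 and SKOV3 are ovarian cancer lines; their controls carried a control hairpin (shControl), and each group had 2 MeRIP libraries with 1 peak list per library. LOVO and RKO are colon adenocarcinoma lines; each of their groups had 1 deposited list, whose controls are labelled wild type and named Control in the sample titles and shControl in the lists. The labels give no other allele, agent, dose or time, and nothing in them says that replicate libraries came from separate cultures, so each p-value reflects the spread between libraries, which may be technical. All values for LOVO and RKO are the authors' group lists, without replicates, and where a pair of values is given for either line the control comes before the knockdown.

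Homologous recombination copies the intact sister DNA to mend a double-strand break. Nucleases first resect the break, the BRCA proteins, the paralog complexes and motor proteins then promote pairing with the sister DNA, and helicases and nucleases take the joined molecules apart. The Fanconi core complex attaches ubiquitin to the FANCD2 and FANCI pair at a blocked fork, which brings in nucleases that cut out a crosslink before recombination finishes the repair. Ovarian cancers often carry defects in BRCA1, BRCA2 or their partners. A peak marks a stretch of RNA that was present and enriched by the antibody, so a lost peak and a transcript that became rarer cannot be told apart from peak lists. In bulk RNA, fewer cells of a kind and less RNA per cell cannot be told apart either.

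Some marker genes did not follow the labels of the OVCAR8 and SKOV3 lists. MUC16 and MECOM, markers of ovarian and Muellerian epithelium, had 5 and 14 peaks in each OVCAR8 control list and at least 5 and 7 in the libraries labelled SKOV3 knockdown, but 0 in both SKOV3 control lists and in both libraries labelled OVCAR8 knockdown. COL1A1, a mesenchymal collagen, had 2 to 4 peaks in those last 4 lists and 0 in the other 4. Of 8 ovarian markers, 5 had peaks in the OVCAR8 control and SKOV3-labelled knockdown lists, with a sum of 33 to 46 peaks, and 2 or 3 in the SKOV3 control and OVCAR8-labelled knockdown lists, with a sum of 11 to 20. MSLN did not follow that order. It had 5 and 4 peaks in OVCAR8 control and 4 and 7 in OVCAR8-labelled knockdown. SKOV3 control held 6 and 4, and SKOV3-labelled knockdown 5 and 3. In the same groups PAX8 had 6 and 6, 0 and 0, 3 and 3, and 5 and 4. KRT7 had 16 and 16, 7 and 8, 11 and 8, and 14 and 13. MECOM also had 14 and 8 peaks in the LOVO lists and 11 and 1 in the RKO lists. WT1, SOX17 and EMX2 were at 0 in all 12 lists. Of 8 intestinal markers, 7 had peaks in LOVO control, 1 in RKO control, and none in RKO-labelled knockdown or in any ovarian list. The RKO-labelled knockdown list also had no peak in any of 4 general epithelial markers, against 4 peaks in RKO control. In the ovarian lists these 4 markers did not follow the exchanged order, with 12 and 10 peaks in the OVCAR8 controls, 13 and 14 in OVCAR8-labelled knockdown, 4 and 3 in the SKOV3 controls, and 15 and 14 in SKOV3-labelled knockdown. KRT18, a keratin, had 3 and 3, 6 and 6, 0 and 0, and 6 and 5 in those groups, so the markers as a whole were mixed. METTL3 itself had 0 and 1 peaks in the OVCAR8 controls, 1 and 1 in OVCAR8-labelled knockdown, 1 and 3 in the SKOV3 controls, 0 and 0 in SKOV3-labelled knockdown, 2 and 2 in LOVO control and knockdown, and 2 and 3 in RKO control and knockdown. That is a count of methylated places, not of transcripts, and does not check the knockdown. The libraries are therefore named by their labels throughout. Calls over the members and control regions lost are given as labelled and with the knockdown lists exchanged between the lines. So are the differences of BRCA1, RAD51B, XRCC3, FANCI and BLM, while most other ovarian knockdown comparisons are as labelled only. Whether the labels were exchanged was not tested, and both versions use the same control lists.

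The members held fewer peaks under knockdown in every line as labelled, an order that scaling and a threshold turned in OVCAR8 and RKO. OVCAR8 control lists held 88 and 83 member peaks, and OVCAR8-labelled knockdown lists held 58 and 57. SKOV3 control lists held 116 and 109, against 86 and 90 in the SKOV3-labelled knockdown. LOVO went from 150 in control to 122, and RKO from 166 to 121. On the log2 scale, knockdown over control was -0.57 in OVCAR8 and -0.35 in SKOV3, and among the colorectal lines -0.30 in LOVO and -0.46 in RKO. The lists themselves shrank as well, from 28237 and 28774 peaks to 15484 and 15744 in OVCAR8, from 28918 and 29102 to 26178 and 26865 in SKOV3, from 36242 to 31060 in LOVO and from 37398 to 34015 in RKO. As a share of all peaks in genes, the members made up 0.333% and 0.308% in OVCAR8 control and 0.398% and 0.385% in OVCAR8-labelled knockdown, so on that scale the OVCAR8 difference turned positive, at 0.29 on the log2 scale. It was 0.25 with the same number of strongest peaks in every list. The RKO difference turned to 0.26 when only peaks with a score of at least 5 were counted, a threshold set on −log10 q in the ovarian lists. In the other 3 lines the share was lower under knockdown, at 0.348% and 0.355% against 0.435% and 0.405% for SKOV3. The colorectal shares were 0.413% against 0.442% (LOVO) and 0.395% against 0.468% (RKO).

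**Figure D1:**
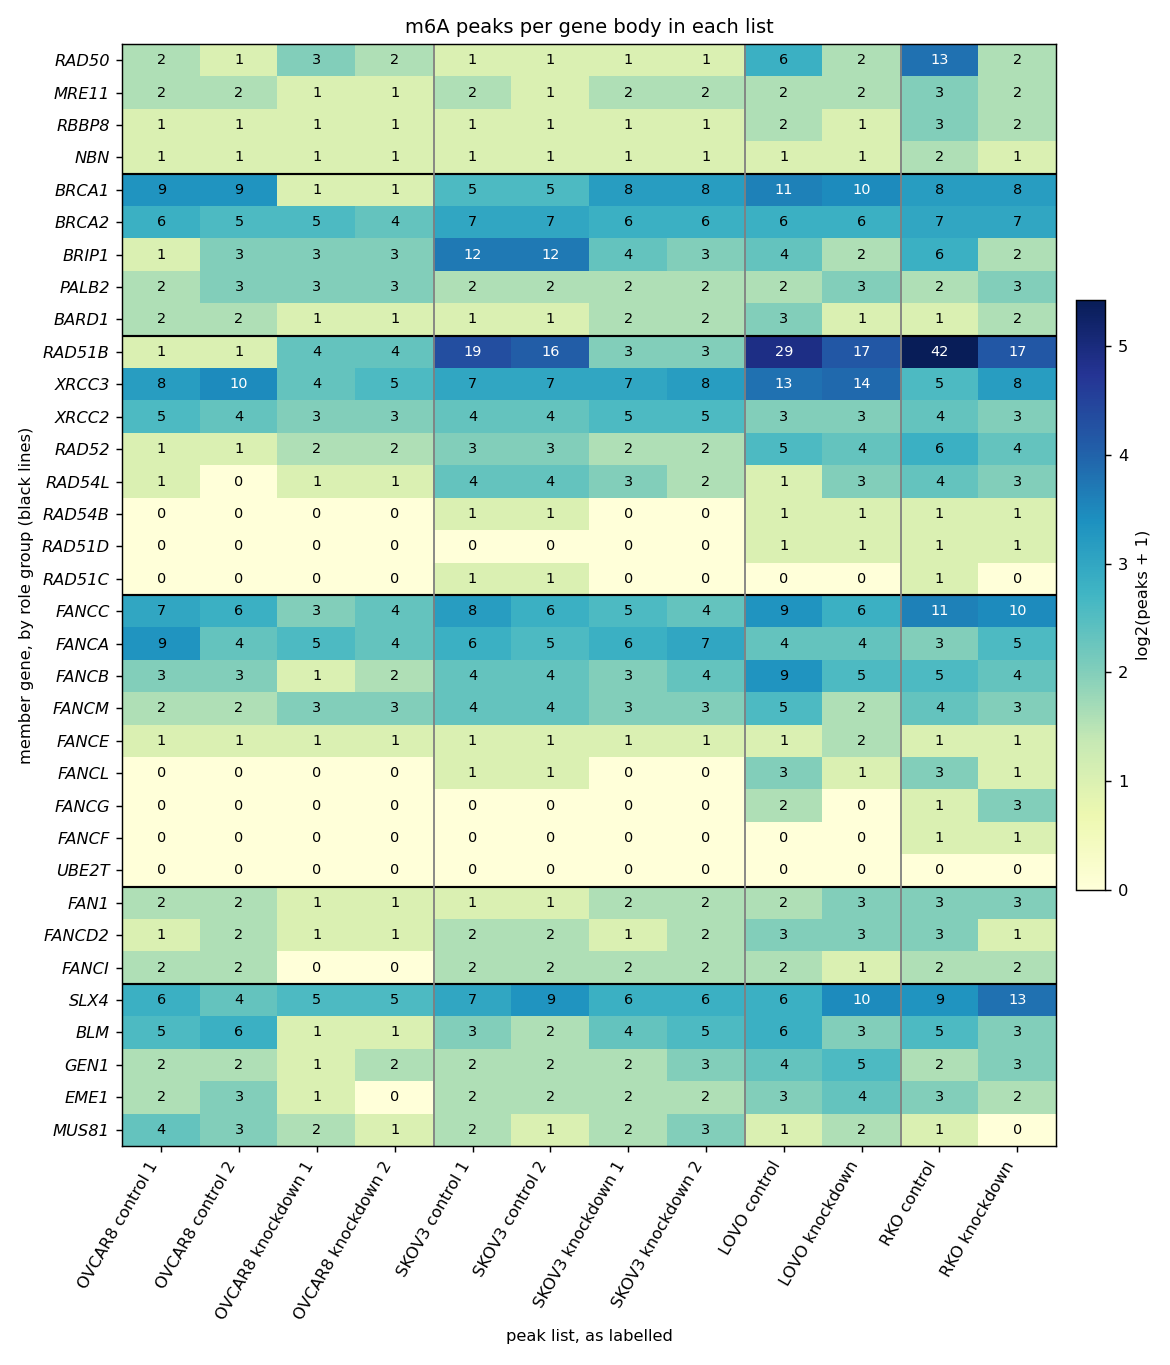
Peaks per member (rows, grouped by role) in each of the 12 lists (columns, as labelled); the printed number is the count of peaks overlapping the gene body and the colour its log2(peaks + 1). RAD51B stands out with 42 peaks in RKO control and 29 in LOVO control against 1 in each OVCAR8 control list, and UBE2T is at 0 in every list.

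Over the 4 lines together, no member passed the test. An exact two-sided permutation test of log2(peaks + 1) within lines, with 144 arrangements and Benjamini-Hochberg adjustment over all genes, called 0 of 27 members tested and 0 of 8870 genes (0%). The other 7 members had fewer than 12 peaks over the 12 lists. With 144 arrangements the smallest possible permutation p is 0.0139. A call would have needed a large share of all genes at that value, so the 0 says little about any single member. At an unadjusted p under 0.05, 2 members passed, both lower under knockdown, against 297 of all genes. limma on the same 12 lists with line as a covariate called 0 members, with 3 at an unadjusted p under 0.05 beside 1023 of all 8870 genes, and 1 gene in all. The median difference over the members tested was -0.18 on the log2 scale, beside -0.19 over all genes.

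FANCC, a subunit of the Fanconi core complex, had the smallest p that the arrangements can give. Its gene body held 7 and 6 peaks in OVCAR8 control and 3 and 4 in OVCAR8-labelled knockdown, 8 and 6 in the SKOV3 controls and 5 and 4 in SKOV3-labelled knockdown, 9 and 6 in the LOVO lists, and 11 and 10 in the RKO lists. The knockdown lists lay below the control lists in all 4 lines, and FANCC was the one member tested of which this held. The mean difference was -0.48 on the log2 scale (exact permutation p = 0.0139, adjusted p = 0.82 by Benjamini-Hochberg). How many of all genes lay below in all 4 lines was not counted. In at least 3 of 4 lines, 18.4% of all 8870 genes did. With the same number of strongest peaks in every list, the FANCC difference in OVCAR8 turned positive. Of the 79 FANCC peaks over the 12 lists, 41 also lay within AOPEP, an aminopeptidase gene on the other strand. By strand, 67 of the 79 lay on FANCC's own. FANCB, another core subunit, followed with a difference of -0.47 (exact permutation p = 0.0417 before adjustment).

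Counting members whose knockdown lists all lay below their control lists gave 12 of 27 (44.4%) in OVCAR8, where 43.2% of all 8870 genes did so. SKOV3 had 8 such members (29.6%, all genes 27.7%), LOVO 12 (44.4%, all genes 39.8%) and RKO 16 (59.3%, all genes 48.9%). The opposite order was seen for 3 OVCAR8 members (11.1%, all genes 14.6%) and 5 SKOV3 members (18.5%, all genes 28.2%), and for 9 in LOVO (33.3%, all genes 24.5%) and 6 in RKO (22.2%, all genes 28%). Below in at least 3 of the 4 lines were 7 of 27 members (25.9%), beside 18.4% of all genes; above in at least 3 lines were 0, beside 2.82%. The 7 were RAD51B, RAD52, BRIP1, BLM, FANCB, FANCC and FANCM, and FANCL behaved likewise with too few peaks to be tested.

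Within the ovarian lines, limma on the 8 lists called 9 of 27 members lower in OVCAR8-labelled knockdown than in OVCAR8 control and 3 higher, where 37.1% of 8018 genes were lower and 13% higher. With each list scaled to its own peaks in genes, the split turned to 5 lower and 11 higher (67.7% of all genes called in either direction), and with the same number of strongest peaks in every list to 2 lower and 5 higher (41.5% of all genes). In SKOV3, 4 were lower and 4 higher, beside 20.5% and 23.7% of all genes. Between the controls, 5 members were lower and 4 higher in OVCAR8 than in SKOV3, beside 23.1% and 25%. Many genes had the same whole number of peaks in both lists of every group, which leaves no spread between replicates and a very small error. A second fit, chosen after these values were seen, therefore set each gene's spread to at least the mean of genes at a like level; below it is called the floored fit. It called 4 members lower and 1 higher in OVCAR8 (all genes 28.2% and 9.19%), 1 lower and 0 higher in SKOV3 (all genes 13.1% and 14.7%), and 4 lower and 1 higher in OVCAR8 control than in SKOV3 control (all genes 16.6% and 17.7%). Genes said to have risen or fallen below did so in the floored fit, with Benjamini-Hochberg adjustment over all 8018 genes, and each difference is of log2(peaks + 1).

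With the knockdown lists exchanged, the picture differed. Against OVCAR8 control, the libraries labelled SKOV3 knockdown had 1 member lower and 3 higher by limma (all genes 5.14% and 4.86%). The floored fit called none of the 27, nor any of the 8018 genes, and 2 members had an unadjusted p under 0.05, beside 718 genes. Against SKOV3 control, the libraries labelled OVCAR8 knockdown had 11 members lower and 0 higher by limma (all genes 29.5% and 2.46%). The floored fit called 3 of these lower, BRCA1, RAD51B and FANCI, beside 591 genes lower and 20 higher.

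**Figure D2:**
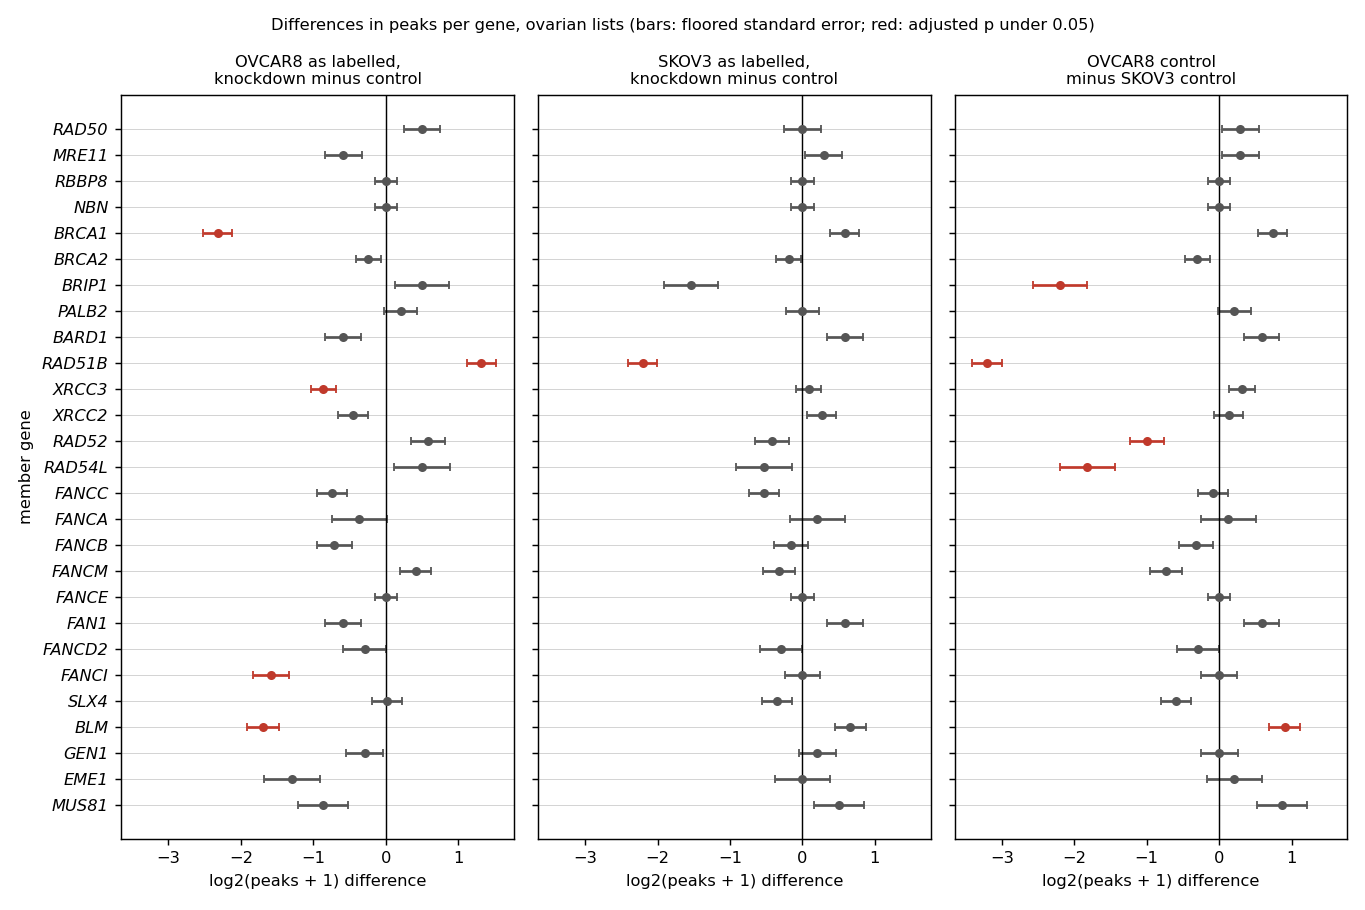
Difference in log2(peaks + 1) (horizontal axis) for each of the 27 members tested in the ovarian lists, for OVCAR8 and SKOV3 as labelled and between the control lists; bars are standard errors of the floored fit and red marks an adjusted p under 0.05. BRCA1 lies at -2.32 in OVCAR8 as labelled and RAD51B at 1.32 there and at -2.2 in SKOV3.

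The first step of repair is carried out by the MRE11, RAD50 and NBN complex, which binds broken ends, and RBBP8 (CtIP), which activates its nuclease. All 4 genes had a peak in every list. RAD50, the ATPase that holds the ends together, had 2 and 1 peaks in the OVCAR8 controls, 3 and 2 in OVCAR8-labelled knockdown, 1 in each of the 4 SKOV3 lists, 6 and 2 in LOVO control and knockdown, and 13 and 2 in RKO control and knockdown. Its count stood apart in RKO control, where the 13 regions were spread over a span of 42.5 kb of the gene. Of these, 1 was kept in RKO-labelled knockdown, 6 were also in LOVO control and 1 was in any ovarian list. The region present in all 12 lists was chr5:132605542-132607149 (GRCh38, RAD50 strand), 1608 bp long.

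The other 3 resection genes varied less. RBBP8 had 1 peak in each of the ovarian lists, 2 and 1 in LOVO control and knockdown and 3 and 2 in RKO. NBN, the subunit that recruits the ATM kinase, had 1 peak in 11 lists and 2 in RKO control. MRE11, the nuclease subunit, had between 1 and 3 peaks per list. Of its 22 peaks, 21 lay within ANKRD49 and on that gene's strand, so those cannot be credited to MRE11 RNA. Over the role group, 16 of 21 RKO control regions and 5 of 11 LOVO control regions were lost under knockdown, against 1 of 5 in OVCAR8 and 0 of 4 in SKOV3 as labelled.

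BRCA1 and BARD1 form a ubiquitin ligase that steers breaks toward recombination. BRCA1 (chr17:43044295-43170327, minus strand) had 9 peaks in each OVCAR8 control list and 1 in each library labelled OVCAR8 knockdown. SKOV3 control lists held 5 each and SKOV3-labelled knockdown lists 8 each. LOVO had 11 and 10, and RKO 8 and 8. The 2 OVCAR8-labelled knockdown lists were thus far below the other 10. BRCA1 fell in OVCAR8 as labelled by 2.32 ± 0.20 (SE, n = 2 lists per group, adjusted p = 0.0065), and limma kept its direction and call as a share of all peaks (-1.38) and with equal numbers of peaks (-1.70), scalings on which the floored fit was not run. In SKOV3 as labelled the difference was 0.58, which the floored fit did not call (adjusted p = 0.12). Exchanged, it was -0.15 against OVCAR8 control and -1.58 against SKOV3 control (adjusted p = 0.048).

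The BRCA1 peaks fell into 3 stretches of the gene body. RefSeq lists 2 starts of BRCA1 that lie 45 kb apart. Downstream of the second start, on the gene's strand, 1 long region at chr17:43092052-43094722 (2671 bp, centred 32.0 kb from that start) was present in 10 lists and absent from both libraries labelled OVCAR8 knockdown. Its fold enrichment was 11.2 and 10.7 in OVCAR8 control, 3.20 and 3.79 in SKOV3 control, and 6.67 and 6.55 in the libraries labelled SKOV3 knockdown. A second region, chr17:43125055-43125364, ends at the second start itself and was found in 6 lists: both OVCAR8 control lists, both SKOV3-labelled knockdown lists and both LOVO lists. Between the starts, on the gene's strand, lay 28 of the 83 BRCA1 peaks, within the noncoding genes LOC101929767 and LOC124900391 on the same strand. Another 30, also between the starts, lay on the opposite strand within NBR2, a noncoding gene that starts beside BRCA1. The 1 BRCA1 region present in all 12 lists, chr17:43135962-43137191, was of this opposite-strand kind, and it held the single peak left in each OVCAR8-labelled knockdown list. The bases around the second start are shown because peaks of 5 of those 6 lists reach them; the LOVO control peak ends short of the printed bases. The sequence runs from 250 bases upstream into the transcript (RefSeq, GRCh38.p14, chr17:43125335-43125614, minus strand), and the 30 capitals mark the transcribed bases that the peaks cover:
BRCA1 second start: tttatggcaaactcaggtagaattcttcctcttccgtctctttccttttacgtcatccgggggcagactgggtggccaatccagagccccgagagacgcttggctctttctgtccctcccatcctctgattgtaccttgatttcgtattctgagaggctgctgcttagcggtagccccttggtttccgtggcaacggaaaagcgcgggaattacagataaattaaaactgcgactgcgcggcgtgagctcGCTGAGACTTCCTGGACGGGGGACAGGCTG

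**Figure D3:**
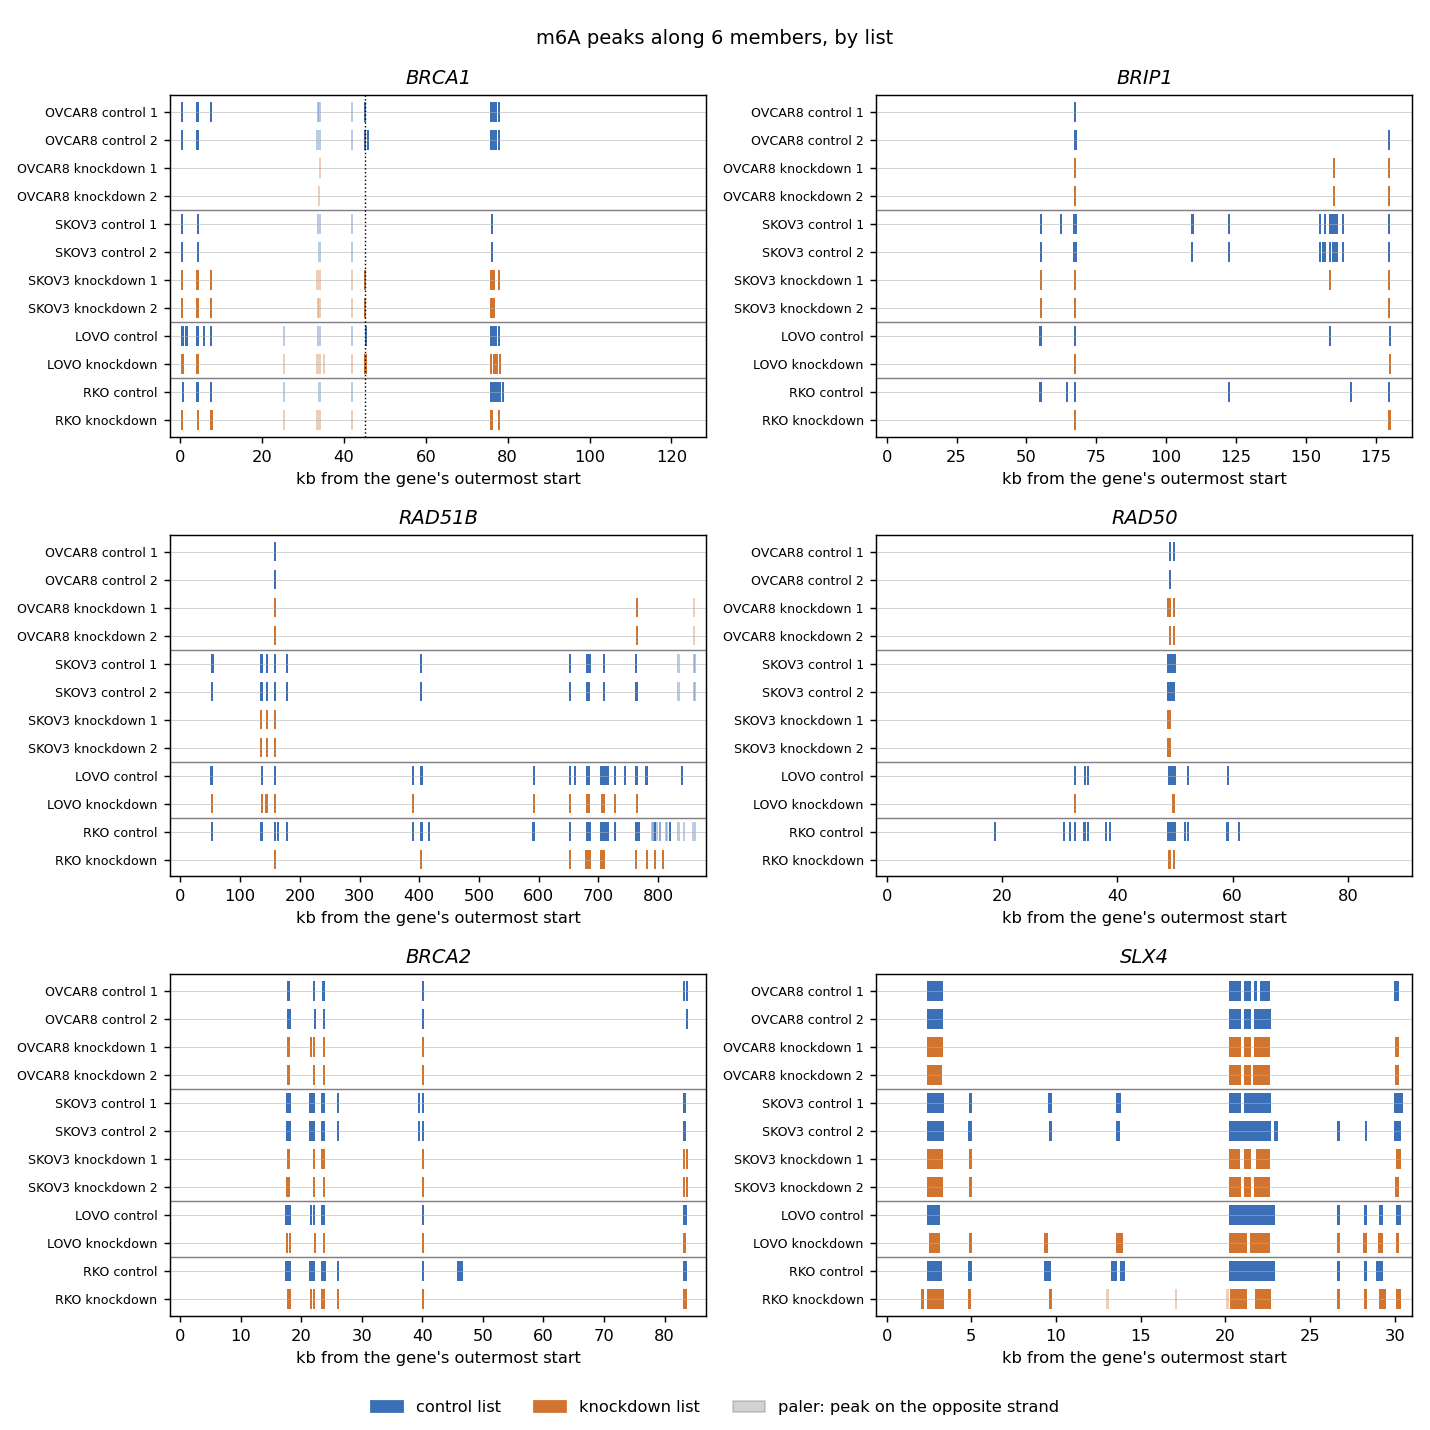
Peaks along BRCA1, BRIP1, RAD51B, RAD50, BRCA2 and SLX4 by distance from the outermost gene start (kb, horizontal axis) in each of the 12 lists (rows), controls in blue, knockdowns in orange, opposite-strand peaks paler, and a dotted line at the second BRCA1 start. In BRCA1 the long region is present in 10 lists and missing in both libraries labelled OVCAR8 knockdown.

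BARD1 had 2 and 2 peaks in the OVCAR8 controls, 1 and 1 in OVCAR8-labelled knockdown, 1 and 1 in the SKOV3 controls, and 2 and 2 in SKOV3-labelled knockdown. LOVO went from 3 to 1 and RKO from 1 to 2. The limma calls on BARD1 in both ovarian lines rest on identical replicate counts, and the floored fit called neither.

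BRCA2, a central mediator of recombination, and PALB2, which joins it to BRCA1, kept most of their regions. BRCA2 had between 4 and 7 peaks in every list, with 6 and 5 in the OVCAR8 controls, 5 and 4 in OVCAR8-labelled knockdown, 7 and 7 in the SKOV3 controls, 6 and 6 in SKOV3-labelled knockdown, 6 and 6 in the LOVO lists, and 7 and 7 in the RKO lists. Its groups overlapped or differed by 1 peak in each line. It had 4 regions present in all 12 lists, more than any other member, of which chr13:32332366-32333304 had a fold enrichment of 4.91 to 13.2 over the 8 ovarian lists. PALB2 had 2 or 3 peaks in every list and lost no control region in any line as labelled or exchanged. Both its regions, chr16:23629684-23630375 and chr16:23634874-23636360, were in all 12 lists.

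BRIP1, a helicase bound by BRCA1, had 12 peaks in each SKOV3 control list. OVCAR8 control held 1 and 3, OVCAR8-labelled knockdown 3 and 3, SKOV3-labelled knockdown 4 and 3, LOVO 4 and 2, and RKO 6 and 2. SKOV3 control thus stood above every other list. In an 8.17 kb stretch, chr17:61700575-61708740, SKOV3 control 2 had 7 regions and SKOV3 control 1 had 6 of them, and 5 of the 7 were in no other list. BRIP1 was lower in OVCAR8 control than in SKOV3 control (difference -2.2 ± 0.37 SE, adjusted p = 0.017). The difference in SKOV3 as labelled was -1.54, which limma called (adjusted p = 0.026) and the floored fit did not (adjusted p = 0.051). Of 11 SKOV3 control regions, 7 were lost in SKOV3-labelled knockdown and 8 in OVCAR8-labelled knockdown. The region chr17:61795420-61796756 was in all 12 lists.

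Among the paralogs and partners (RAD51B, RAD51C, RAD51D, XRCC2, XRCC3, RAD52, RAD54L and RAD54B), RAD51B had the most peaks of any member. It is a long gene, 863.3 kb on chromosome 14, and forms a complex with RAD51C, RAD51D and XRCC2 that acts in the strand pairing step. RAD51B had 1 peak in each OVCAR8 control list, 4 in each OVCAR8-labelled knockdown list, 19 and 16 in the SKOV3 controls and 3 and 3 in SKOV3-labelled knockdown. LOVO control held 29 and LOVO knockdown 17, and RKO control held 42 against 17 in RKO knockdown. The control lists thus ranged from 1 to 42, more than the knockdown lists, which ranged from 3 to 17. RAD51B rose in OVCAR8 as labelled by 1.32 ± 0.20 (SE, adjusted p = 0.015) and fell in SKOV3 as labelled (difference -2.2 ± 0.20 SE, adjusted p = 0.0072). Between the controls it was lower in OVCAR8 (difference -3.20, adjusted p = 0.0040). These 3 differences kept their direction, and limma's call, as a share of all peaks and with equal numbers of peaks. Exchanged, the difference was 1.00 against OVCAR8 control, not called by the floored fit, and -1.88 against SKOV3 control (adjusted p = 0.043).

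The RAD51B peaks merged into 55 regions, of which 26 were in a single list and 1, chr14:67976564-67977012, was in all 12. By group, 39 of the regions were in RKO control, 26 in LOVO control, 18 in SKOV3 control and 1 in OVCAR8 control. Under knockdown the groups held 14 in RKO, 17 in LOVO, 3 in SKOV3-labelled and 3 in OVCAR8-labelled lists. Loss was 30 of 42 control regions in RKO, 14 of 29 in LOVO and 12 of 15 in SKOV3 as labelled. Of the 39 regions in RKO control, 14 were in no other list, and these included regions on both strands. On the strand opposite to RAD51B lay 12 of the 42 RKO control peaks and 0 of the 17 peaks of RKO-labelled knockdown.

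XRCC2 and XRCC3 had peaks in all lists. XRCC2 had 5 and 4 peaks in the OVCAR8 controls, 3 and 3 in OVCAR8-labelled knockdown, 4 and 4 in the SKOV3 controls, 5 and 5 in SKOV3-labelled knockdown, 3 and 3 in the LOVO lists, and 4 and 3 in the RKO lists. Of its 4 merged regions, 3 were in all 12 lists. XRCC3, which pairs with RAD51C, had 8 and 10 peaks in the OVCAR8 controls, 4 and 5 in OVCAR8-labelled knockdown, 7 and 7 in the SKOV3 controls, 7 and 8 in SKOV3-labelled knockdown, 13 and 14 in the LOVO lists, and 5 and 8 in the RKO lists. Both OVCAR8-labelled knockdown lists lay below all other ovarian lists. XRCC3 fell in OVCAR8 as labelled by 0.86 ± 0.17 (SE, adjusted p = 0.027), while limma's call was lost as a share of all peaks (-0.10) and with equal numbers of peaks (-0.13). Exchanged, the difference was -0.23 against OVCAR8 control and -0.55 against SKOV3 control, neither called by the floored fit (adjusted p = 0.90 and 0.13). Of the 96 XRCC3 peaks, 52 lay on the opposite strand, so those cannot be credited to XRCC3 RNA. They made up 4 and 5 peaks in the OVCAR8 controls and 2 and 3 in OVCAR8-labelled knockdown. On XRCC3's own strand the same lists held 4 and 5, and 2 and 2. All 8 XRCC3 peaks of RKO-labelled knockdown lay on the opposite strand.

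RAD52, which anneals single strands, had 1 peak in each OVCAR8 control list, 2 in each OVCAR8-labelled knockdown list, 3 and 3 in the SKOV3 controls, 2 and 2 in SKOV3-labelled knockdown, 5 and 4 in the LOVO lists, and 6 and 4 in the RKO lists. It was lower in OVCAR8 control than in SKOV3 control (difference -1.0 ± 0.23 SE, adjusted p = 0.041). RAD54L, a motor protein that acts on DNA during strand pairing, had 1 and 0 peaks in the OVCAR8 controls, 1 and 1 in OVCAR8-labelled knockdown, 4 and 4 in the SKOV3 controls, 3 and 2 in SKOV3-labelled knockdown, 1 and 3 in the LOVO lists, and 4 and 3 in the RKO lists. It too was lower in OVCAR8 control than in SKOV3 control (difference -1.82 ± 0.38 SE, adjusted p = 0.030). The remaining 3 genes of the group were nearly empty. RAD51C, which takes part in both paralog complexes, had 1 peak in each SKOV3 control list and in RKO control and 0 elsewhere, at 1 place, chr17:58693101-58693465. RAD51D had 1 peak in each of the LOVO and RKO lists and 0 in the ovarian lists, all within the read-through gene RAD51L3-RFFL. RAD54B had 0 or 1 peak per list, all within FSBP.

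In the Fanconi core complex, FANCM anchors the complex to DNA and FANCL is the ubiquitin ligase that works with UBE2T. FANCM had 2 and 2 peaks in the OVCAR8 controls, 3 and 3 in OVCAR8-labelled knockdown, 4 and 4 in the SKOV3 controls, 3 and 3 in SKOV3-labelled knockdown, 5 and 2 in the LOVO lists, and 4 and 3 in the RKO lists. It differed by limma in both ovarian lines, in opposite directions, with identical replicate counts, and the floored fit called neither. Of its regions, chr14:45135918-45136669 and chr14:45188732-45189351 were in all 12 lists. The first spans the FANCM start, with a fold enrichment of 7.48 to 13.6 in the ovarian lists. The FANCM start is shown because peaks of 6 lists, the OVCAR8 lists and the SKOV3 controls, reach it (RefSeq, GRCh38.p14, chr14:45135680-45135959, plus strand), and the 42 capitals mark the bases under those peaks, which begin just upstream of the start:
FANCM start: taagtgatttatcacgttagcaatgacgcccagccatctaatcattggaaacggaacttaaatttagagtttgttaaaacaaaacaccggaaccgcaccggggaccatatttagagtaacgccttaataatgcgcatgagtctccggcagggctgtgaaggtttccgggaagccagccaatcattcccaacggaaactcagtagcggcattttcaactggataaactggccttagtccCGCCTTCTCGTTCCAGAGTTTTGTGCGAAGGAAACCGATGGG

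FANCA, FANCB and FANCE are further core subunits. FANCA had 9 and 4 peaks in the OVCAR8 controls, 5 and 4 in OVCAR8-labelled knockdown, 6 and 5 in the SKOV3 controls, 6 and 7 in SKOV3-labelled knockdown, 4 and 4 in the LOVO lists, and 3 and 5 in the RKO lists. Its groups overlapped in both ovarian lines. Of its 62 peaks, 47 lay within ZNF276, the neighbouring gene on the other strand. By strand, 31 of the 62 lay on FANCA's own strand. The other 31 lay on the opposite strand, that of ZNF276, so those cannot be credited to FANCA RNA. FANCB, which helps activate FANCL, had 3 and 3 peaks in the OVCAR8 controls, 1 and 2 in OVCAR8-labelled knockdown, 4 and 4 in the SKOV3 controls, 3 and 4 in SKOV3-labelled knockdown, 9 and 5 in the LOVO lists, and 5 and 4 in the RKO lists. Its count was highest in LOVO control, where 3 regions were in no other list. FANCE, the subunit that contacts FANCD2, had 1 peak in 11 lists and 2 in LOVO knockdown. Its region chr6:35455607-35456467, 3.7 kb from the start, was in all 12 lists with a fold enrichment of 12.3 to 22.4 in the ovarian lists and a score of 49.2 in RKO-labelled knockdown, the highest of any member there.

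The core subunits FANCF, FANCG and FANCL had few peaks. FANCL had 1 peak in each SKOV3 control list, 3 and 1 in LOVO control and knockdown, 3 and 1 in RKO, and 0 in the other 6 ovarian lists. FANCG had 0 in all ovarian lists, 2 and 0 in the LOVO lists, and 1 and 3 in the RKO lists. FANCF had 1 peak in each RKO list and 0 elsewhere. Across the role group the loss of control regions was 5 of 14 for OVCAR8 and 7 of 20 for SKOV3, and among the colorectal lines 16 of 33 for LOVO and 13 of 29 for RKO.

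FANCD2 and FANCI form the clamp that receives the ubiquitin, and FAN1 is a nuclease drawn to it. FANCD2 had between 1 and 3 peaks in every list, and its groups overlapped in both ovarian lines. FANCI had 2 and 2 peaks in the OVCAR8 controls, 0 and 0 in OVCAR8-labelled knockdown, 2 in each of the 4 SKOV3 lists, 2 and 1 in the LOVO lists, and 2 and 2 in the RKO lists. The OVCAR8-labelled knockdown lists were the only ones without a FANCI peak. FANCI fell in OVCAR8 as labelled by 1.58 ± 0.25 (SE, adjusted p = 0.015). Exchanged, the difference was 0 against OVCAR8 control and again -1.58 against SKOV3 control (adjusted p = 0.049). Of its 19 peaks, 9 lay within POLG, a mitochondrial polymerase gene on the minus strand. The region chr15:89315697-89316707, in 10 lists and absent from both OVCAR8-labelled knockdown lists, was itself on the minus strand. The other FANCI regions were on the plus strand. FANCI is among the members without a known strand here, so peaks of that minus-strand region cannot be credited to FANCI RNA. FAN1 had 2 and 2 peaks in the OVCAR8 controls, 1 and 1 in OVCAR8-labelled knockdown, 1 and 1 in the SKOV3 controls, 2 and 2 in SKOV3-labelled knockdown, 2 and 3 in the LOVO lists, and 3 and 3 in the RKO lists, and the floored fit called no difference.

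Joined DNA molecules are taken apart by the BLM helicase or cut by GEN1, by MUS81 with EME1, and by nucleases that SLX4 holds together. BLM had 5 and 6 peaks in the OVCAR8 controls, 1 and 1 in OVCAR8-labelled knockdown, 3 and 2 in the SKOV3 controls, 4 and 5 in SKOV3-labelled knockdown, 6 and 3 in the LOVO lists, and 5 and 3 in the RKO lists. The OVCAR8-labelled knockdown lists were below all others. BLM fell in OVCAR8 as labelled by 1.70 ± 0.22 (SE, adjusted p = 0.011), and limma kept its call as a share of all peaks (-0.86). In SKOV3 as labelled the difference was 0.66, which the floored fit did not call (adjusted p = 0.10). Exchanged, it was -0.24 against OVCAR8 control and -0.79 against SKOV3 control, neither called by the floored fit (adjusted p = 0.90 and 0.10). Between the controls BLM was higher in OVCAR8 by 0.90 ± 0.22 (SE, adjusted p = 0.043). The peak left in every list was chr15:90749345-90750058, and chr15:90760676-90761183 was present in the other 10 lists and absent from both OVCAR8-labelled knockdown lists.

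SLX4 had 6 and 4 peaks in the OVCAR8 controls, 5 and 5 in OVCAR8-labelled knockdown, 7 and 9 in the SKOV3 controls, 6 and 6 in SKOV3-labelled knockdown, 6 and 10 in the LOVO lists, and 9 and 13 in the RKO lists. The knockdown list was higher in both colorectal lines, and 4 SLX4 regions were in RKO-labelled knockdown alone. The regions chr16:3588515-3591388, 2874 bp and the longest of any member, and chr16:3608217-3609248 were in all 12 lists. Peaks of 7 lists on the opposite strand reach the window at the SLX4 start. DNASE1, an endonuclease gene on the plus strand, starts at chr16:3611760 within that window. The sequence is shown on the SLX4 strand (RefSeq, GRCh38.p14, chr16:3611577-3611856, minus strand), and the 80 capitals mark the bases under those opposite-strand peaks:
SLX4 start: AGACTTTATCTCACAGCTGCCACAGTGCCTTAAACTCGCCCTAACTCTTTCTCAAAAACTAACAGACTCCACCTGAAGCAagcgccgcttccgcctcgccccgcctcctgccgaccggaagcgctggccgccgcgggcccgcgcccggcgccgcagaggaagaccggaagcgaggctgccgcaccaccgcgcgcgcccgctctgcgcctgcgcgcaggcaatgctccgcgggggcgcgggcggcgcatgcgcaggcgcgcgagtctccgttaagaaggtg

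MUS81 had 4 and 3 peaks in the OVCAR8 controls, 2 and 1 in OVCAR8-labelled knockdown, 2 and 1 in the SKOV3 controls, 2 and 3 in SKOV3-labelled knockdown, 1 and 2 in the LOVO lists, and 1 and 0 in the RKO lists. Its region chr11:65862395-65863824 was in 11 lists and missing from RKO-labelled knockdown. EME1 had 2 and 3 peaks in the OVCAR8 controls, 1 and 0 in OVCAR8-labelled knockdown, 2 in each of the 4 SKOV3 lists, 3 and 4 in the LOVO lists, and 3 and 2 in the RKO lists. The EME1 difference in OVCAR8 was -1.29, called by limma (adjusted p = 0.042) and not by the floored fit. GEN1 had between 1 and 5 peaks per list, and 24 of its 30 peaks also lay within LOC105373449, a noncoding gene on the other strand. All 30 lay on GEN1's own strand.

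A control region was defined as a stretch with a peak in every list of that control group, and it was lost where no knockdown peak of the same strand touched it. In OVCAR8, 27 of 72 member regions were lost in the OVCAR8-labelled knockdown (37.5%, 95% Wilson interval 27.2 to 49.0), beside 56.7% of the 23154 regions in all genes. In SKOV3 as labelled 36 of 102 were lost (35.3%, 26.7 to 45.0), beside 42.2%. LOVO lost 53 of 150 (35.3%, 28.1 to 43.3), beside 36.9%, and RKO 83 of 166 (50%, 42.5 to 57.5), beside 59.6%. The intervals cover counting error alone, and regions of 1 gene are not independent. Member loss was below that of all genes in each line at this setting, and the interval held the value of all genes in SKOV3 and LOVO but not in OVCAR8 or RKO. In LOVO the order turned under 3 settings: 44% against 43.3% of all genes with 50% of a region covered, 46.9% against 43.9% at the stricter threshold, and 42.2% against 39.2% with equal numbers of peaks.

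Exchanged, the losses were further apart. Of the 72 OVCAR8 control regions, 3 had no peak in the libraries labelled SKOV3 knockdown (4.17%, 1.43 to 11.6), beside 14% in all genes. Of the 102 SKOV3 control regions, 49 had none in the libraries labelled OVCAR8 knockdown (48.0%, 38.6 to 57.6), beside 43.2%. With equal numbers of peaks that value became 23.2%, beside 20.5% in all genes. The value of 4.17% became 9.64% without OVCAR8 control replicate 1 (all genes 18.8%) and 12.9% with regions of any control list (all genes 22%). In the BRCA complexes, 9 of 18 OVCAR8 control regions were lost as labelled and 0 of 18 exchanged, while in SKOV3 9 of 26 were lost as labelled and 15 of 26 exchanged. BRCA1 alone went from 7 of 8 lost as labelled to 0 of 8 exchanged in OVCAR8, and from 0 of 5 to 4 of 5 in SKOV3.

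**Figure D4:**
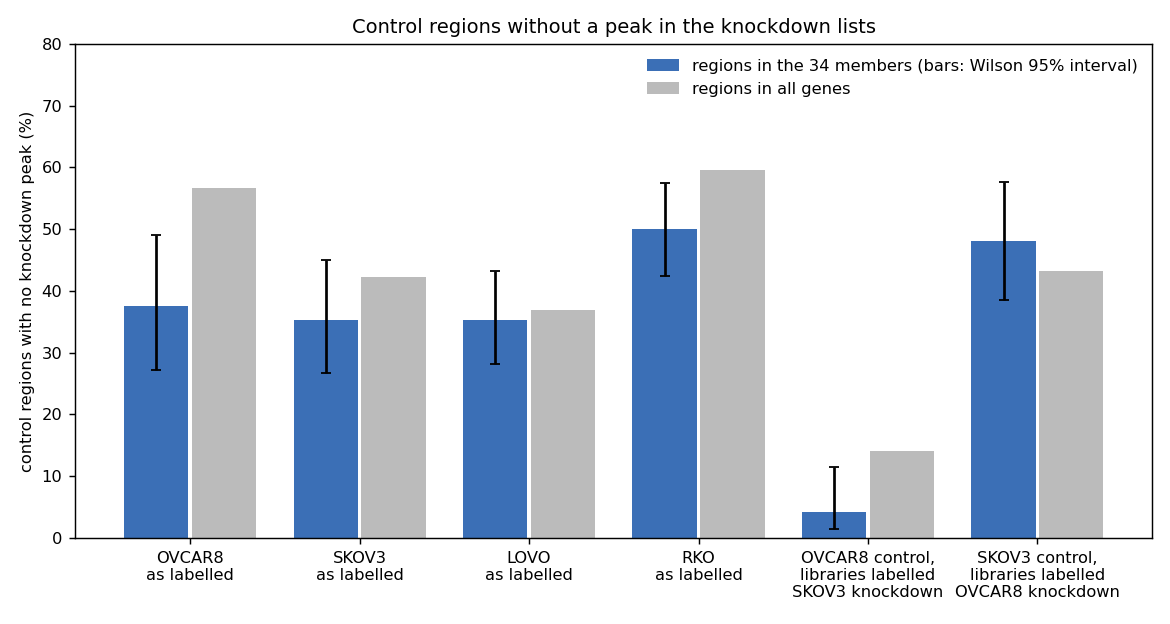
Percent of control regions with no knockdown peak (vertical axis) in each line as labelled and with the ovarian knockdown lists exchanged, for regions in the members (blue, error bars 95% Wilson intervals) and in all genes (grey). The lowest member value is 4.17% (OVCAR8 control against the libraries labelled SKOV3 knockdown) and the highest is 50% (RKO).

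Knockdown regions without a control peak were fewer among members than among all genes. They made up 7 of 50 member regions in OVCAR8 as labelled (14%, all genes 24.3%), 9 of 80 in SKOV3 (11.2%, all genes 35.5%), 19 of 122 in LOVO (15.6%, all genes 26.9%) and 35 of 121 in RKO (28.9%, all genes 51.9%). In RKO they were mostly in the paralogs and partners, with 15 of 37, and in the core complex, with 11 of 28. FANCC with 6 of 10 regions, XRCC3 with 6 of 8, RAD51B with 5 of 17 and SLX4 with 5 of 13 held most of them.

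Loss went with the strength of a region in its control. Regions of a control group were ranked by the −log10 p (ovarian lists) or score (colorectal lists) of their peaks. They were split into 3 parts by percentile of the list. From the weakest to the strongest part, member loss was 61.1%, 47.8% and 16.1% in OVCAR8 and 52%, 32.4% and 27.9% in SKOV3. It was 54.2%, 41.7% and 13.0% in LOVO, and 81.1%, 47.3% and 24.1% in RKO. All genes showed the same order, with 76.4%, 65.0% and 34.9% in OVCAR8 and 75.8%, 64.3% and 39.0% in RKO. Their values were 58.7%, 47.0% and 25.7% in SKOV3, and 58.0%, 40.0% and 13.3% in LOVO. In OVCAR8 the member values lay below those of all genes in every part, whereas in RKO the weakest part was above. Members were also above all genes in the strongest part of SKOV3 and the middle part of LOVO. Of 72 OVCAR8 member regions, 31 fell in the strongest part, beside 8693 of 23154 in all genes.

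Merging the peaks of all lists gave 255 member regions. Of these, 32 (12.5%) were in all 12 lists, beside 5.84% of 78607 regions in all genes, and 87 (34.1%) were in 1 list, beside 36.3%. In 23 members at least 1 region was in all 12 lists, and in 19 of these it lay on the gene's own strand. PALB2, FANCA, FANCM and SLX4 had 2 such regions each, and XRCC2 had 3. Another 8 member regions (3.14%, all genes 0.71%) were absent only from both OVCAR8-labelled knockdown lists, in BLM, BRCA1, BRCA2, FANCB and FANCI. RKO control alone held 37 (14.5%, all genes 8.87%), led by RAD51B with 14 and RAD50 with 7, while RKO-labelled knockdown alone held 18 (7.06%, all genes 12.9%). LOVO and RKO controls shared 11 regions found nowhere else (4.31%, all genes 2.63%), of which 4 were in RAD50 and 3 in RAD51B.

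The share of member peaks that met a peak in another list differed between pairs of lists, and it also moves with the number of peaks in the other list. On average 98.7% of the member peaks of an OVCAR8-labelled knockdown list met a peak in a SKOV3 control list, and 80.4% met one in an OVCAR8 control list. Of the OVCAR8 control peaks, 88.6% met a peak in a SKOV3-labelled knockdown list and 53.8% met one in an OVCAR8-labelled knockdown list, while 89.5% met one in LOVO control, the list of another tissue. Of the SKOV3 control peaks, 60.7% met a peak in a SKOV3-labelled knockdown list and 44.2% met one in an OVCAR8-labelled knockdown list. For SKOV3-labelled knockdown the shares were near equal, at 82.1% with OVCAR8 control and 81.5% with SKOV3 control.

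Of 43 other genes of the pathway, 30 could be tested over the 12 lists by the permutation test and 0 passed. At an unadjusted p under 0.05, 3 of the 30 passed, beside 297 of all 8870 genes. In the ovarian lists 25 were tested. The floored fit called 5 lower and 0 higher in OVCAR8 as labelled (all genes 28.2% and 9.19%). It called 1 lower and 2 higher in SKOV3 as labelled (all genes 13.1% and 14.7%). Between the controls 2 were lower and 2 higher (all genes 16.6% and 17.7%). ATR, the kinase that answers stalled forks, had 11 and 11 peaks in the OVCAR8 controls, 3 and 3 in OVCAR8-labelled knockdown, 6 and 8 in the SKOV3 controls and 9 and 11 in SKOV3-labelled knockdown, an order like that of BRCA1 and BLM. ATM, the kinase that answers double-strand breaks, had 4 and 4, 6 and 6, 9 and 8, and 4 and 4 in those groups, an order like that of RAD51B. POLQ, the polymerase of an alternative end joining route, had 3 to 6 peaks in the ovarian lists.

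Most member peaks lay on the gene's own strand. Of 1208 peaks in the 31 members with a known strand, 84.3% did, beside 86.7% in all genes. In RKO-labelled knockdown 25.6% lay on the opposite strand, the highest share of any list, and in all genes that list was highest too, at 20%. The median length of member peaks ran from 300.5 to 401 bp over the lists, against 292 to 326 bp for all peaks in genes, and was longer in all 12. Their median strength lay between percentile 39.6 and percentile 55.1 of each list's peaks. Longer members had more peaks (Spearman's rho 0.43 over 34 genes, 0.39 over the 19156 genes with a peak), as a description across genes that share the same libraries. Of the 31 members with a RefSeq start window, 8 had a peak reaching it. The letters GGACT, the m6A motif most often cited, were found on either strand in 19 of 41 member windows of 300 bases (46.3%), beside 44.2% of 35116 windows in the table, with members on chromosome 8 not in that count.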

How the data were processed

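The members and gene lists were chosen with earlier results of these data known. The submitters' processing notes name MACS2 2.2.7.1, HISAT2 2.1.0, Trim Galore 0.6.6 and Bowtie2 2.4.2 and build hg38, with no role or order; peaks were called per strand, per the peak names in the deposited files. The OVCAR8 and SKOV3 lists deposited by the authors, 1 per library, give each peak's fold enrichment and its −log10 p and q from the peak caller. The LOVO and RKO lists deposited by the authors, 1 per group, give a score per peak of at least 3; its meaning and the handling of replicate 2 were not given in the sources used here. Read depth is unknown, and files of the input libraries were not used here. Peaks were ranked within a list by −log10 p in the ovarian lists and by score in the colorectal lists, as the authors give them. A threshold of 5 on −log10 q (ovarian lists) or score (colorectal lists) was 1 alternative.

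Peaks overlapping a gene body by at least 1 bp were counted per gene on log2(peaks + 1). Genes with at least 12 peaks over the 12 lists entered an exact permutation test within lines, and genes with at least 8 over the 8 ovarian lists entered limma 3.58.1 (R 4.3.3), without a replicate block, with Benjamini-Hochberg adjustment over all genes and a threshold of 0.05. The floored fit, the same design with each gene's residual variance set to at least the mean of genes in the same of 10 bins by mean level and t on 4 degrees of freedom, was added after seeing the data. Same-numbered replicates did not deviate together (r = 0.0051 and 0.0081 over 8018 genes). Values in every list are given for the 10 members with the most peaks, for members whose knockdown lists all lay on 1 side of their control lists in at least 3 of 4 lines, and for members called in a fit. Scripts were tested on simulated data. Alternatives are listed in the closing section.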

Additional observations from a re-analysis of the deposited data

Results flagged for a closer look

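In 6 members the difference between knockdown and control, as labelled, was not the same in OVCAR8 and SKOV3 by a test of the difference itself (OVCAR8 difference minus SKOV3 difference of log2(peaks + 1), 2 lists per group, limma and the floored fit, adjusted over 8018 genes; adjusted p of the floored fit given). The value was -2.91 for BRCA1 (adjusted p = 0.0041), with 9 peaks falling to 1 in OVCAR8 and 5 against 8 in SKOV3 in every list of the group. For RAD51B it was 3.53 (adjusted p = 0.0025), with opposite directions in the 2 lines. BLM had -2.36 (adjusted p = 0.0067), BRIP1 2.04 (adjusted p = 0.044), FANCI -1.58 (adjusted p = 0.029) and XRCC3 -0.95 (adjusted p = 0.044). All 6 rest on the knockdown labels of the ovarian libraries, which MUC16, MECOM and COL1A1 did not follow while MSLN, KRT8 and KRT18 were mixed. Of all genes, 3419 of 8018 passed the floored test. By limma alone 11 members passed, beside 4476 of 8018 genes.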

How the results depend on the processing

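Leaving out 1 ovarian library at a time gave log2 ratios of member peaks of -0.61 to -0.53 in OVCAR8 and -0.40 to -0.31 in SKOV3, member loss of 40.9 to 43.1% in OVCAR8, 37.1 to 37.6% in SKOV3, 4.17 to 9.64% and 51.0 to 52.9% with the knockdown lists exchanged, 10 to 13, 6 to 8 and 8 to 11 members called in OVCAR8, SKOV3 and between the controls (all genes 41.6 to 48.5%, 36.2 to 42.6% and 40.8 to 47.6%), and 0 called over the 4 lines. limma calls on EME1, FANCC and XRCC2 in OVCAR8, BLM and BRIP1 in SKOV3, and BLM and RAD54L between the controls were lost without at least 1 library. With the replicate block the calls were 10, 6 and 9, and 0 over the 4 lines, though the replicate numbers do not pair the libraries. The share of all genes called with the block is not given here. In the main fit the calls were 12, 8 and 9 members, beside 50%, 44.2% and 48.1% of all genes. With 50% of a region required to be covered, LOVO loss was 44% and SKOV3 control loss in the OVCAR8-labelled knockdown 63.7%. A stricter strength threshold of 5 gave 46.9% in LOVO, 32.3% in RKO and an RKO log2 ratio of 0.26, turned in direction. Regions of any control list gave 12.9% for OVCAR8 control in the SKOV3-labelled knockdown. With the 15484 strongest peaks of every list, OVCAR8 loss was 23.8%, SKOV3 control loss in the OVCAR8-labelled knockdown 23.2%, the OVCAR8 log2 ratio 0.25, members called in OVCAR8 7, and FANCC in OVCAR8 1.16. Peaks overlapping no other gene gave -0.48 in OVCAR8. As a share of all peaks in genes the log2 ratios were 0.29 in OVCAR8 and -0.25 in SKOV3, and XRCC2 in OVCAR8 was 0.18. The floored fit, added after seeing the data, called 5, 1 and 5 members. The cause of these changes was not tested. In all, 129 summary values under an alternative stayed near the main value, those without a library included. Another 10 moved away from it, as did 3 under alternatives added after seeing the data, and 3 turned in direction. Numbers of members called were compared by their total, not by direction. The 129 therefore include the OVCAR8 calls as a share of all peaks, which went from 9 lower and 3 higher to 5 lower and 11 higher. Leaving out RKO or LOVO called 0 members.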

Other observations

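In the colorectal lines, 5 members had knockdown lists on opposite sides of their controls, from 1 list per group and with no test. RAD54L had 1 peak in LOVO control and 3 in LOVO knockdown, but 4 and 3 in RKO. BARD1 had 3 and 1 against 1 and 2, FANCG 2 and 0 against 1 and 3, EME1 3 and 4 against 3 and 2, and MUS81 1 and 2 against 1 and 0. Each differs by 3 peaks or fewer within a line.

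Of the other pathway genes, BABAM2, a subunit of BRCA1-containing complexes, had 11 peaks in LOVO control and 4 in LOVO knockdown, and 14 and 3 in RKO. UIMC1, which brings BRCA1 to ubiquitin at breaks, had 7 peaks in both LOVO lists, 6 in RKO control and 0 in RKO knockdown. FAAP24, SFR1, RAD51AP1, ABRAXAS1 and BABAM1 had no peak in any list, like UBE2T among the members. These genes were picked after their values were seen.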
